A study of Homo sapiens with 2 samples.

Results

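The genes described here encode the heat shock proteins of the cytosol, the cochaperones that assist them, the ring-shaped chaperonin CCT and the transcription factors HSF1 and HSF2. They were chosen by symbol, from a list of 41 genes, and all 41 symbols stood among the 25268 symbols of the deposited tables. The label "cytosolic" does not hold for all of them. From general knowledge, HSPA13 is an HSP70-type protein of the microsomes, the vesicle fraction that holds the endoplasmic reticulum (ER). HSF1 and HSF2, as transcription factors, are further exceptions.

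Of C4-2B MDVR cells, 2 RNA-seq libraries were compared. The cells are an enzalutamide-resistant line of castration-resistant prostate cancer. The Indocin library came from cells given 20 µM Indocin for 3 days, and the DMSO library from cells given the vehicle DMSO for 3 days. Both cultures were of a line maintained in medium with 20 µM enzalutamide, an antagonist of the androgen receptor, so the comparison is between Indocin and vehicle in a line adapted to that drug and not against untreated cells. Indocin is indomethacin, a cyclooxygenase inhibitor. C4-2B MDVR is a single cultured line selected for resistance, and each group had 1 library. No difference below therefore has a replicate check, a test or an error across cultures, and "higher" and "lower" describe these 2 libraries.

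Levels were in FPKM, fragment numbers relative to transcript length and to the size of the library, and can be compared between genes because they are per length. FPKM summed to 583096 in the Indocin library and 617510 in the DMSO library. The number of fragments was unknown. Relative depth was read from 1335 genes with a mean under 0.05 FPKM: for 45.5% of them the Indocin to DMSO ratio lay within 1% of 1.014 times a ratio of whole numbers up to 4, where other factors took a median of 2.47%; a single fragment thus counted for nearly as much in either library. The 8 markers of the prostate line lay between 58.1 and 362.3 FPKM in the Indocin library and between 61.4 and 412.7 FPKM in the DMSO library. Of 8 markers of blood, vessel and connective tissue cells 6 lay under 1 FPKM in both, and 4 of these were listed at 0 in both. The others were CD68 (5.86 FPKM with Indocin, 6.51 with DMSO) and COL1A1 (4.80 FPKM with Indocin, 4.54 with DMSO).

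Heat shock proteins bind unfolded stretches of other proteins and let go of them in cycles driven by ATP. HSP70 proteins work with J-domain proteins (HSP40), which deliver clients and trigger ATP hydrolysis, and with nucleotide exchange factors (HSP110 and BAG proteins), which reset the cycle. HSP90 receives clients from HSP70 through the adaptor STIP1 and finishes them with cochaperones such as PTGES3, FKBP4 and AHSA1; steroid hormone receptors, the androgen receptor among them, and many kinases are known clients. Small heat shock proteins hold unfolded proteins without ATP, and CCT folds actin and tubulin inside its ring. HSF1 is the main transcription factor of the heat shock response and binds heat shock elements, which are built from inverted repeats of the letters GAA.

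Promoter sequence was the first property compared among the genes, since several of them carry such elements close to the start of transcription. RefSeq promoters (GRCh38.p14) of 37 of the 41 genes were read, and the 250 bases before the start were searched on both strands for the pairs GAANNTTC and TTCNNGAA and for a triple, in which both pairs overlap so that GAA, TTC and GAA (or their complement) follow each other at the same spacing. The genes without an entry in this search were HSPA14, HSF1, FKBP4 and CCT6A. Only the first listed promoter of each gene was read. A gene can have other starts, and an element at such a start would be missed. The stretches below are from the 5 genes with a pair that were at least 1.2-fold lower in the Indocin library (HSPA1B, HSPA8, CHORDC1, DNAJA1 and HSPB1), from HSPA1A, the twin of HSPA1B, and from DNAJB6, which holds a triple and differed less; a lone pair of CHORDC1 at -205 is not shown. They have the fixed letters of each pair in capitals and 20 bases, or fewer at the end of the window, on each side.
HSPA1B: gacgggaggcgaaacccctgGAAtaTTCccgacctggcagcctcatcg
HSPA1A: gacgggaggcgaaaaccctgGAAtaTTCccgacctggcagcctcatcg
HSPA8 distal: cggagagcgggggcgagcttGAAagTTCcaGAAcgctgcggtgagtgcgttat
HSPA8 proximal: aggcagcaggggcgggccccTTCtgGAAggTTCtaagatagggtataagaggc
CHORDC1: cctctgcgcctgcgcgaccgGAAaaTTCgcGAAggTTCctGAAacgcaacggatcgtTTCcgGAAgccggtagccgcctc
DNAJB6: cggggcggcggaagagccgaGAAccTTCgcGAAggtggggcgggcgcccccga
DNAJA1: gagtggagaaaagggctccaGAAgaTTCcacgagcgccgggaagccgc
HSPB1: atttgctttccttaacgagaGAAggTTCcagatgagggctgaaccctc
These lie on GRCh38.p14 at chr6:31827613-31827660 (HSPA1B, plus strand), chr6:31815417-31815464 (HSPA1A, plus strand), chr11:123062334-123062386 and chr11:123062159-123062211 (HSPA8, minus strand), chr11:90223050-90223129 (CHORDC1, minus strand), chr7:157336853-157336905 (DNAJB6, plus strand), chr9:33025055-33025102 (DNAJA1, plus strand) and chr7:76302471-76302518 (HSPB1, plus strand). Counted from the start of transcription, the pair of HSPA1B began at -105, that of HSPA1A at -106, the elements of HSPA8 at -230 and -55, and the longest run of CHORDC1 at -60.

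A pair was found in 10 of 37 promoters (27.0%), against 11.7% of 27305 promoters of the table. Of the 8908 promoters of genes averaging 1 FPKM or more, 8.48% held one. The 37 include HSPA1A, HSPA2 and DNAJA4, which lay under that mean. Without them, 9 of the genes described here held a pair and 25 did not. HSPA1A and HSPA1B, whose stretches above are nearly the same, count as 2 of the 10. Beside the genes shown, HSPB8, BAG2 and TCP1 held 1 pair each. The triple stood in HSPA8, CHORDC1 and DNAJB6 (8.11%), against 0.439% of all promoters and 0.281% of those of genes averaging 1 FPKM or more. A match describes the letters only and is not a measured binding site.

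The 41 genes ranged over more than 4 orders of magnitude in level. In both libraries 18 of them lay at 100 FPKM or more, among 809 genes in all. The constitutive HSP70 gene HSPA8 was the highest, at 1118.6 FPKM in the Indocin library and 1445.5 FPKM in the DMSO library, and it ranked 69 with Indocin and 59 with DMSO among all symbols. HSPB1, the main small heat shock protein, ranked 90 with Indocin and 76 with DMSO, and HSP90AB1 ranked 87 in both. At the other end HSPA2, an HSP70 best known from testis, lay at 0.215 FPKM with Indocin and 0.281 with DMSO, and the J-domain gene DNAJA4 at 0.0409 FPKM with Indocin and 0.0502 with DMSO. These genes and HSPA1A lay under the minimum mean of 1 FPKM, so 38 of 41 entered the counts. Fragments of genes with close copies are hard to place. Of the 50-base stretches in its transcripts, none occurs in another gene's transcripts for 15 of the 41 genes, and outside the HSPA1 pair the share was at most 16.6%, with 11 genes above 5%. Together the 41 genes held 1.22% of summed FPKM in the Indocin library and 1.39% in the DMSO library.

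**Figure D1:**
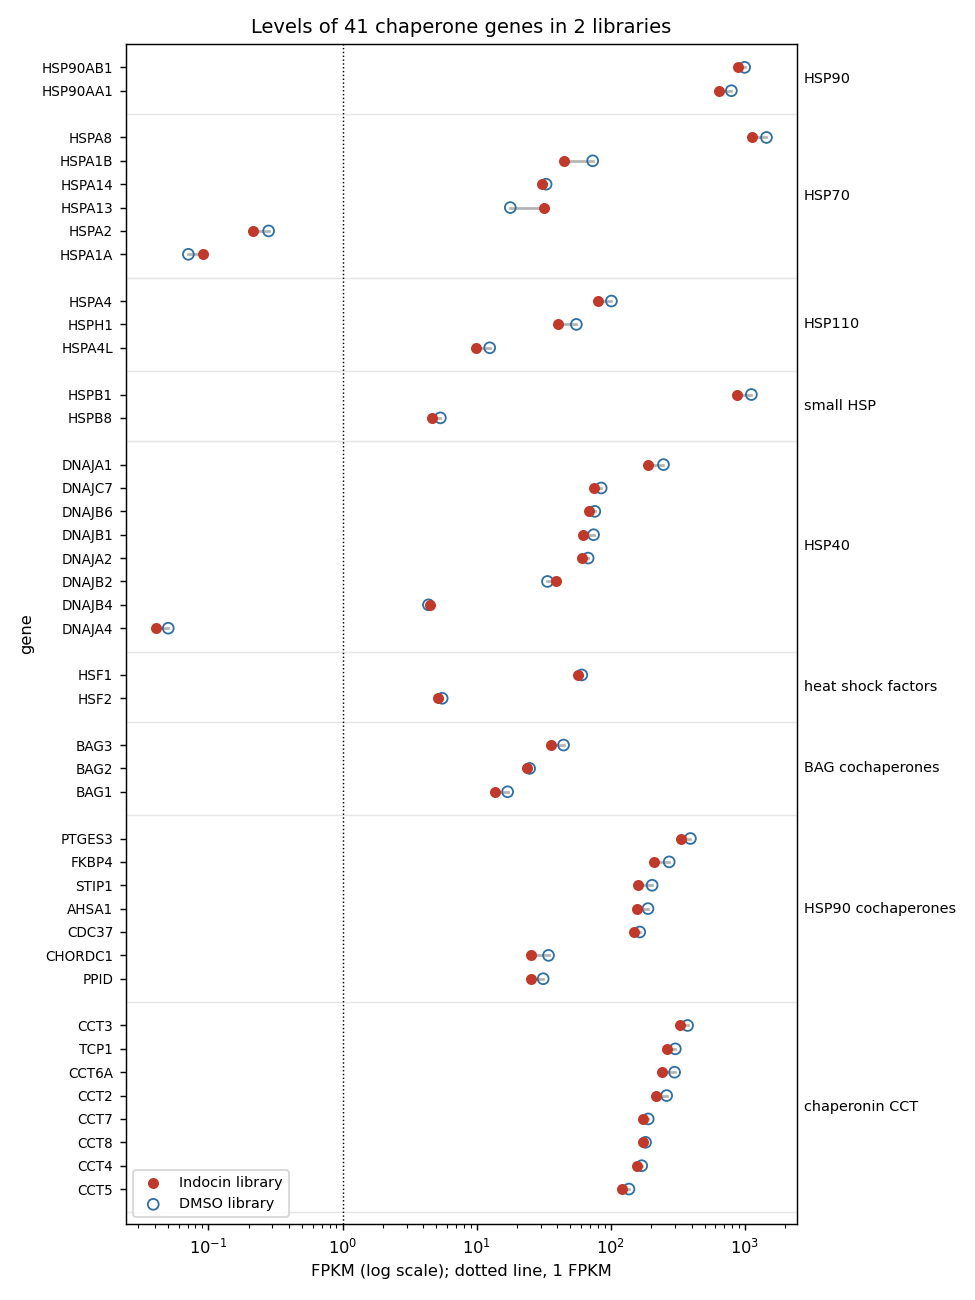
Level of each of the 41 genes in FPKM (log axis), grouped by class and ordered by mean level, with filled red points for the Indocin library and open blue points for the DMSO library (1 library each). The red point lies left of the blue point for most genes, with HSPA13, DNAJB2, DNAJB4 and the barely listed HSPA1A as the exceptions, and 3 genes lie left of the dotted line at 1 FPKM.

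Most of these genes were slightly lower in the Indocin library, and 1 was clearly higher. Differences are given as log2((Indocin FPKM + 1)/(DMSO FPKM + 1)), a scale on which low levels show less than their true fold, and a gene was counted when it passed 1.2-fold on this scale. Of the 38 genes 17 were at least 1.2-fold lower (44.7%), against 12.0% of all 12043 genes with the same minimum mean, and 1 was at least 1.2-fold higher, against 9.98% of all genes. Ratios below 0 were found for 35 of 38, against 55.3% of all genes. The median log2 ratio was -0.22 (quartiles -0.32 and -0.14), beside -0.03 over all genes (quartiles -0.15 and 0.11). By class, the median was -0.32 for HSP110, -0.30 for HSP90 cochaperones, -0.29 for BAG proteins, -0.26 for small heat shock proteins, -0.24 for HSP90, -0.23 for HSP70, -0.19 for CCT, -0.15 for HSP40 and -0.08 for the heat shock factors, with 2 to 8 tested genes in each. The size of these differences was small: HSPA1B was the only gene at least 1.5-fold lower (1.08% of all genes) and HSPA13 the only one at least 1.5-fold higher (2.30% of all genes). In bulk RNA, a change in the share of cells and a change in RNA per cell cannot be told apart.

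The counts depended on how the libraries were scaled. After both were given the same upper quartile, 8 of 38 genes (21.1%) were lower by 1.2-fold or more, against 7.15% of all genes, and the median was -0.14, beside 0.04 over all genes. The 8 were HSPA1B, HSPA8, HSPH1, HSPB1, DNAJA1, STIP1, FKBP4 and CHORDC1. All class medians stayed below 0, between -0.24 for HSP110 and -0.02 for the heat shock factors. Over all genes the split at 1.2-fold was 1443 lower and 1202 higher as deposited, and 861 lower and 1812 higher with the same upper quartile. Highly expressed genes also lay lower as a whole. Of 1915 genes that averaged 50 FPKM or more, 14.2% were at least 1.2-fold lower and 71.5% had ratios below 0. Of the genes described here 25, HSF1 included, lay above that level. Among these, 11 (44.0%) were at least 1.2-fold lower and all 25 were below 0. Across the 38 genes the log2 ratio and the mean level had a Spearman rho of -0.34, beside -0.24 across all 12043 genes; genes of 1 library pair share its depth and are not independent.

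**Figure D2:**
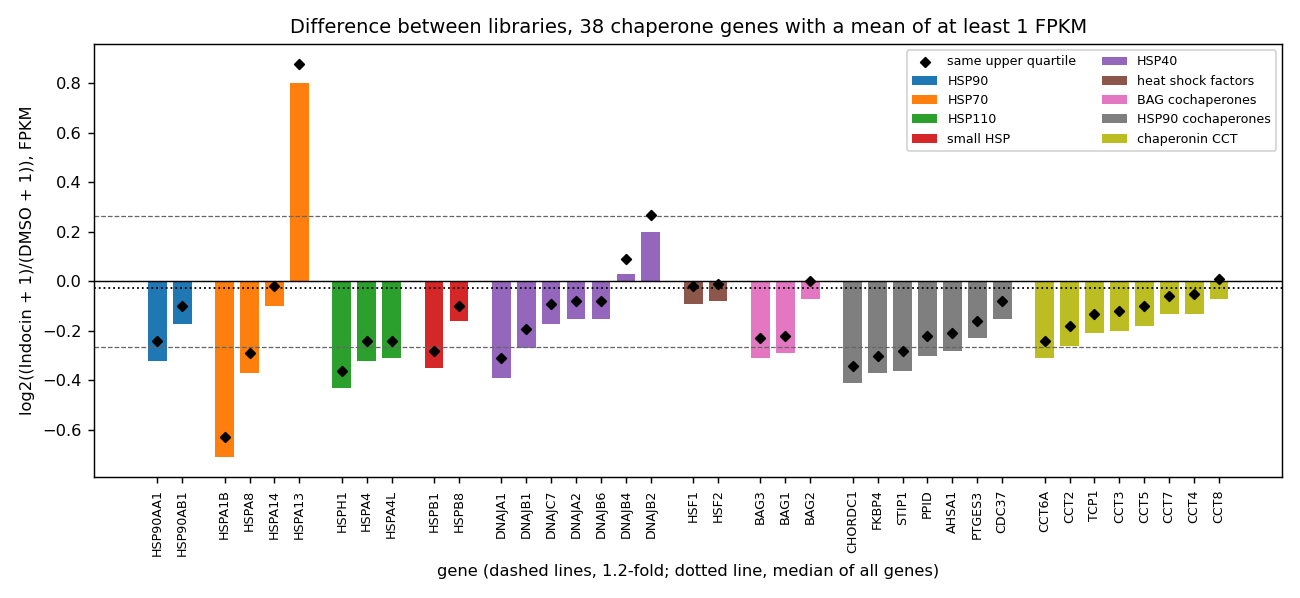
Log2 ratio of FPKM + 1, Indocin over DMSO, of the 38 genes that averaged 1 FPKM or more (bars, coloured by class), with the value after both libraries were given the same upper quartile (black diamonds), 1.2-fold (dashed lines) and the median of all genes (dotted line). HSPA13 stands alone at 0.80 above the upper dashed line and HSPA1B lowest at -0.71; every diamond lies higher than the end of its bar, and those of BAG2 and CCT8 reach 0.

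The HSP70 class held both ends of the range. HSPA13, which lacks the peptide-binding part of other HSP70 proteins, stood at 31.9 FPKM in the Indocin library and 17.8 FPKM in the DMSO library, 78.6% higher in the Indocin library, with a log2 ratio of 0.80 (0.88 with the same upper quartile). This was the percentile 98.7 of all tested genes, and no 50-base stretch of its transcripts occurs in another gene. Its level relative to the ER HSP70 gene HSPA5 was 0.0897 in the Indocin library and 0.0549 in the DMSO library, a ratio within each library that scaling cannot change. Its 250 promoter bases held no heat shock element pair and no match to TGATGNAA, letters of the C/EBP-ATF response element that stand in 3.19% of all promoters, in 1.31% of those of genes averaging 1 FPKM or more and, among these genes, in that of HSPA4L alone.

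HSPA1B, a stress-inducible HSP70, stood at 44.5 FPKM in the Indocin library and 73.2 FPKM in the DMSO library (-0.71). Its twin HSPA1A was listed at 0.0904 FPKM with Indocin and 0.0709 with DMSO. The pair shares much sequence: 71.3% of the 50-base stretches of HSPA1A transcripts also occur in HSPA1B, so reads could have been moved between them. With the FPKM of both summed, the log2 ratio was -0.70. Relative to the constitutive HSPA8, this pair also lay lower in the Indocin library. Together HSPA1A and HSPA1B amounted to 0.0398 of HSPA8 in the Indocin library and 0.0507 in the DMSO library. HSPA8 itself differed by -22.6% (-0.37). HSPA14, an HSP70 of the ribosome, differed little, with 30.7 FPKM in the Indocin library and 32.9 FPKM in the DMSO library (-0.10).

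All 3 HSP110 genes, which encode nucleotide exchange factors for HSP70, were at least 1.2-fold lower, against 12.0% of all genes. HSPH1, the heat-inducible member, stood at 40.7 FPKM in the Indocin library and 55.3 FPKM in the DMSO library (-0.43), HSPA4 at 80.8 FPKM with Indocin and 101.0 with DMSO (-0.32), and HSPA4L at 9.89 FPKM with Indocin and 12.5 with DMSO (-0.31). Their summed FPKM was 131.4 in the Indocin library and 168.8 in the DMSO library. With the same upper quartile HSPH1 (-0.36) stayed past 1.2-fold, while HSPA4 and HSPA4L (-0.24 each) did not.

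Of the HSP90 pair, the inducible HSP90AA1 differed more than the constitutive HSP90AB1. HSP90AA1 stood at 635.1 FPKM in the Indocin library and 791.3 FPKM in the DMSO library (-0.32), and HSP90AB1 at 881.8 FPKM with Indocin and 993.7 with DMSO (-0.17). The ratio of HSP90AA1 to HSP90AB1 was thus 0.720 in the Indocin library and 0.796 in the DMSO library. HSP90AA1 was short of 1.2-fold with the same upper quartile (-0.24). Of the 50-base stretches of their transcripts, 14.9% for HSP90AA1 and 16.6% for HSP90AB1 also occur in other genes, mostly processed pseudogenes, so a part of their reads cannot be placed uniquely at that length.

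Of the 7 cochaperones of HSP90, 5 (71.4%) passed 1.2-fold on the lower side, against 12.0% of all genes. The others also lay below 0, as did 55.3% of all genes. The largest difference was in CHORDC1, an HSP90-binding protein with zinc-binding CHORD domains. CHORDC1 stood at 25.5 FPKM in the Indocin library and 34.3 FPKM in the DMSO library (-0.41). Its promoter holds the longest run of heat shock letters shown above, and a link between run and ratio was not tested. FKBP4, the immunophilin FKBP52 of steroid receptor complexes, stood at 210.3 FPKM with Indocin and 272.2 with DMSO (-0.37), and STIP1, the adaptor between HSP70 and HSP90, at 158.4 FPKM with Indocin and 203.1 with DMSO (-0.36). At the same upper quartile these 3 genes were still past 1.2-fold. PPID, the cyclophilin counterpart of FKBP4, had a log2 ratio of -0.30 and AHSA1, the activator of the HSP90 ATPase, of -0.28, and both were short of 1.2-fold with the same upper quartile (-0.22 and -0.21). PTGES3, the p23 protein that stabilises closed HSP90, stood at 333.7 FPKM in the Indocin library and 391.7 FPKM in the DMSO library (-0.23). The kinase-specific CDC37 differed least, at 147.6 FPKM with Indocin and 164.1 with DMSO (-0.15). STIP1 amounted to 0.104 of summed HSP90 in the Indocin library and 0.114 in the DMSO library.

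J-domain proteins were mixed. DNAJA1, the most abundant of the class, stood at 188.0 FPKM in the Indocin library and 246.7 FPKM in the DMSO library (-0.39), and DNAJB1, the classic heat-inducible HSP40, at 61.5 FPKM with Indocin and 74.3 with DMSO (-0.27). The ratio of DNAJB1 to DNAJA1 was 0.327 in the Indocin library and 0.301 in the DMSO library, so the heat-inducible DNAJB1 differed less than DNAJA1. They were the 2 of 7 tested genes past 1.2-fold (28.6%, against 12.0% of all genes). DNAJB1 lay just past it (-0.268, where 1.2-fold is -0.263). DNAJA2 (-0.15), DNAJB6 (-0.15) and DNAJC7 (-0.17), a J-domain protein that binds HSP70 and HSP90, were short of it. DNAJB6 is an antiaggregation J-domain protein whose promoter holds a triple element, and it stood at 68.2 FPKM in the Indocin library and 75.9 FPKM in the DMSO library. On the other side of 0 were DNAJB2, a J-domain protein with ubiquitin-interacting motifs, at 38.7 FPKM with Indocin and 33.7 with DMSO (0.20), and DNAJB4, another HSP70 partner, at 4.50 FPKM with Indocin and 4.37 with DMSO (0.03). With the same upper quartile DNAJB2 was 1.2-fold higher (0.27).

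Small heat shock proteins and BAG proteins were also on the lower side, HSPB8 and BAG2 by less than 1.2-fold. Of these, BAG3 and HSPB8 work together in a pathway of selective autophagy. HSPB1 stood at 874.0 FPKM in the Indocin library and 1115.4 FPKM in the DMSO library (-0.35), and HSPB8 at 4.68 FPKM with Indocin and 5.36 with DMSO (-0.16), so that HSPB1 exceeded HSPB8 by 186.7 times in the Indocin library and 208.2 times in the DMSO library. BAG3 stood at 35.7 FPKM with Indocin and 44.4 with DMSO (-0.31) and BAG1, a nucleotide exchange factor, at 13.8 FPKM with Indocin and 17.0 with DMSO (-0.29). BAG2, an inhibitor of the ubiquitin ligase CHIP, was nearly level at 23.6 FPKM with Indocin and 24.8 with DMSO (-0.07). The BAG3 and BAG1 ratios were short of 1.2-fold with the same upper quartile (-0.23 and -0.22).

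Neither transcription factor passed 1.2-fold. HSF1 stood at 56.8 FPKM in the Indocin library and 60.7 FPKM in the DMSO library (-0.09), and HSF2, a second factor that pairs with HSF1, at 5.19 FPKM with Indocin and 5.53 with DMSO (-0.08). HSF1 is known to be controlled mainly at the protein level, by chaperone binding and phosphorylation, and neither was measured here. Among genes with a heat shock element pair in the promoter 9 were tested, of which 5 were at least 1.2-fold lower, with a median of -0.35 and a range of -0.71 to -0.07. Among 25 tested genes without one in the promoter read, 10 were at least 1.2-fold lower, with a median of -0.20 and a range of -0.43 to 0.80. Such genes may hold an element at a start that was not read. The ranges overlap, and genes with an element and a small difference included BAG2, DNAJB6 and HSPB8. Of all 12043 genes, 12.0% were at least 1.2-fold lower. That share was not computed for all genes with a pair, so a link between element and ratio was not tested.

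The 8 subunits of CCT, which each occupy 1 position in every ring, kept their order between the libraries. All 8 had ratios below 0, as had 71.5% of all genes averaging 50 FPKM or more. CCT6A alone (12.5%) was at least 1.2-fold lower, against 14.2% of those genes. It stood at 240.2 FPKM in the Indocin library and 298.6 FPKM in the DMSO library (-0.31). CCT2 lay just short of 1.2-fold (-0.258), followed by TCP1 (-0.21), CCT3 (-0.20), CCT5 (-0.18), CCT7 (-0.13), CCT4 (-0.13) and CCT8 (-0.07). With the same upper quartile CCT6A (-0.24) was short of 1.2-fold and CCT8 changed sign (0.01). In both libraries CCT3 was the highest subunit gene and CCT5 the lowest, the highest over the lowest being 2.70 in the Indocin library and 2.74 in the DMSO library. The order of all 8 was the same in both, though CCT7 (173.4 FPKM) and CCT8 (172.8 FPKM) were nearly level in the Indocin library. The subunits spread more widely than any of them differed between the libraries, so a kept order says little. The subunit mRNAs averaged 208.3 ± 66.0 FPKM in the Indocin library and 239.0 ± 82.0 FPKM in the DMSO library, where the error is the SD over 8 subunit genes and not over cultures.

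**Figure D3:**
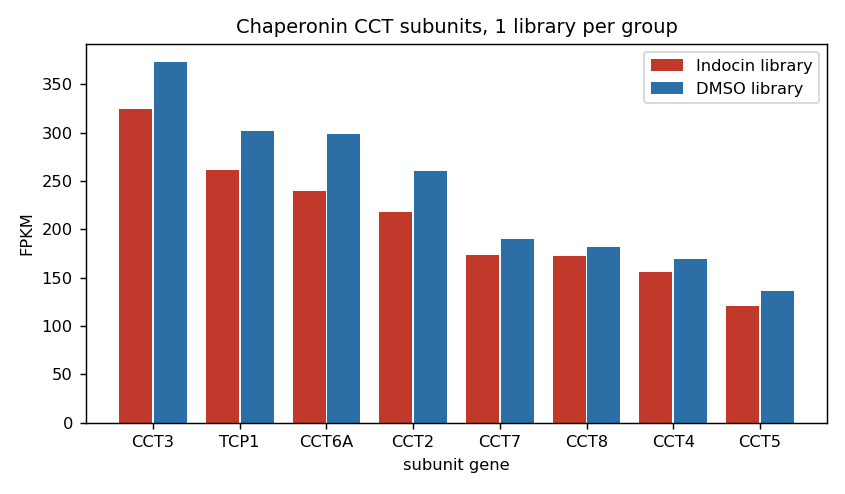
FPKM of the 8 CCT subunit genes in the Indocin library (red, left bar) and the DMSO library (blue, right bar), ordered by the DMSO value, with 1 library per group and so no error bar. Each red bar is lower than its blue neighbour, by most for CCT6A and by least for CCT8, and both sets descend in the same order from CCT3 to CCT5.

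Other lists of the same network had medians nearer 0. Among 29 further cochaperones of HSP90 and HSP70, 4 (13.8%) were lower by 1.2-fold, near the 12.0% of all genes. None was higher by 1.2-fold, against 9.98% of all genes, and the median was -0.11. The 4 were TELO2, of the kinase-maturing TTT complex (16.2 FPKM in the Indocin library and 22.3 FPKM in the DMSO library, -0.44), FKBP5, the androgen-induced immunophilin FKBP51 (172.1 FPKM with Indocin, 225.3 with DMSO, -0.39), and, named after their values were seen, SGTA (-0.32) and NUDC (-0.29). The highest of the list were AHSA2 (0.12) and AARSD1 (0.06). Of the 29, 24 had ratios below 0 and 5 above, against 55.3% of all genes below 0. Among 13 genes of prefoldin, which hands actin and tubulin to CCT, and other CCT partners, 1 was at least 1.2-fold lower and 1 as much higher, and the median was -0.05. PFDN2 stood at -0.30, VBP1 at -0.24, TXNDC9 at 0.06 and the testis-type subunit CCT6B at 0.48 (1.49 FPKM in the Indocin library and 0.789 FPKM in the DMSO library).

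Further J-domain genes of the cytosol and nucleus had a median of -0.05. Of 13 tested, 2 (15.4%) were at least 1.2-fold lower, near the 12.0% of all genes, among them DNAJC9 (-0.46), a histone chaperone. Another 2 were as much higher, DNAJC12 (0.37) and DNAJC13 (0.29), against 9.98% of all genes. Of 12 further genes grouped with HSP70 and small heat shock proteins only 3 reached a mean of 1 FPKM, with a median of -0.18. They were CRYAB (-0.17), HSPB11 (-0.18) and HSPA12A (-0.20), of which HSPB11 is grouped here by symbol only. HSPA6, a strictly heat-inducible HSP70, was listed at 0.278 FPKM in the Indocin library and 0.455 FPKM in the DMSO library. A list of 13 genes known to be induced by heat shares 6 with the other lists given here (HSPA1L, HSPA6, CRYAB, DNAJB5, HSPD1 and HSPE1). Of the 13, 9 were tested and 3 (33.3%) were at least 1.2-fold lower, against 12.0% of all genes, with a median of -0.17. The 3 were IER5 (-0.36), MRPL18 (-0.29) and, named after its value was seen, HSPE1 (-0.27), while DEDD2 stood at 0.03. Of the 9, 8 had ratios below 0 and 1 above, against 55.3% of all genes below 0. Among 8 genes of the HSF family and its binding proteins 3 were tested, with a median of -0.08, HSBP1, an HSF1-binding protein, at -0.08, HSBP1L1 at -0.42 and HSF4 at 0.20.

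The chaperones of the ER and of mitochondria both had medians of 0.00. Among 18 ER chaperones none was at least 1.2-fold lower and 1, the reductase DNAJC10 (24.3 FPKM in the Indocin library and 19.8 FPKM in the DMSO library, 0.28), was as much higher. Their ratios were 9 below 0 and 9 above, with SIL1 at 0.19, MANF at -0.19 and SDF2L1 at -0.24. Among 16 tested mitochondrial chaperones and proteases 2 (12.5%) were at least 1.2-fold lower, near the 12.0% of all genes. These were HSPE1 and GRPEL1 (-0.27 each, named after their values were seen). Another 3 were as much higher, against 9.98% of all genes. GRPEL2, a nucleotide exchange factor of mitochondrial HSP70, stood at 28.0 FPKM with Indocin and 16.4 with DMSO (0.73), and the others, also named after their values were seen, were the protease LONP1 (0.53) and the mitochondrial HSP70 HSPA9 (0.42). The ratio of cytosolic HSPA8 to the ER HSP70 HSPA5 was 3.15 in the Indocin library and 4.45 in the DMSO library. With 1 library per group, the difference between these lists could not be tested. Among the 8 markers of the prostate line, 5 (62.5%) were also at least 1.2-fold lower, against 14.2% of all genes averaging 50 FPKM or more. The median of the 8 was -0.30, beside -0.22 for the 38 genes described here. SLC45A3 (-0.51) and KLK2 (-0.45) were the furthest below 0. FOLH1 (0.18) and STEAP2 (0.09) were above 0. The part of such a difference in the chaperone values was not tested.

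**Figure D4:**
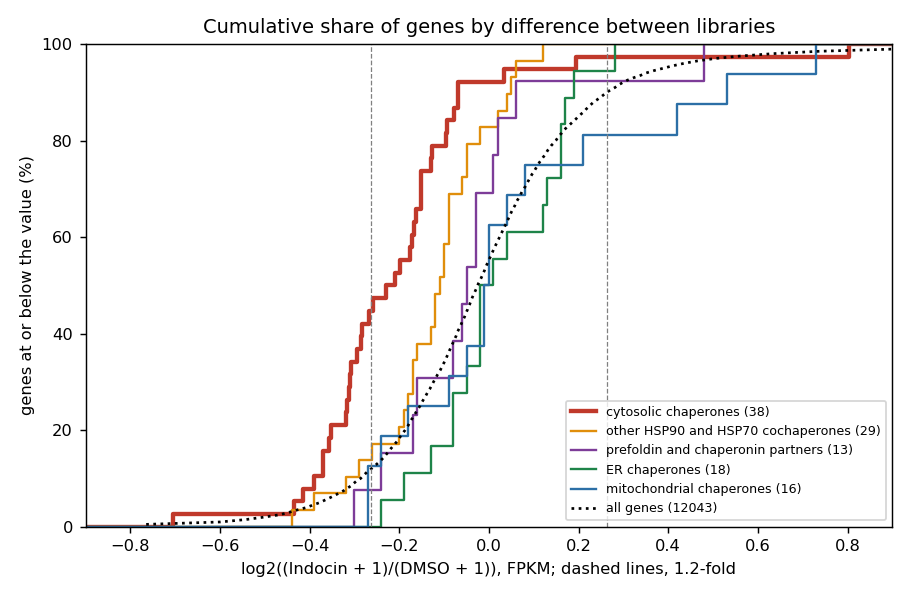
Cumulative percentage of genes (vertical axis) by log2 ratio of FPKM + 1, Indocin over DMSO (horizontal axis). The thick red line, labelled cytosolic chaperones, is the 38 tested genes described here, with HSPA13 and the heat shock factors included. Thin lines are 4 other lists, the dotted line is all 12043 genes, and dashed lines stand at 1.2-fold. The red curve lies left of the dotted one through its middle, with HSPA13 alone at its upper end; at the lower dashed line it has passed 44.7% while all genes have passed 12.0%.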

How the data were processed

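Strand-specific mRNA libraries (KAPA Stranded mRNA-Seq kit, per the labels' protocols) were quantified by the authors, and the deposited unit is FPKM per gene symbol, per the file headers. TopHat, StringTie, Cufflinks, Cuffnorm and bcl2fastq are named in the submitters' processing notes, as are hg19 and GRCh37; the annotation, the strand setting and the fragment numbers were not given in the sources used here. FPKM are relative to the rest of the library, so a few abundant genes can shift all others. From these values log2 ratios of FPKM + 1 (Indocin over DMSO) were computed for genes averaging 1 FPKM or more, and counted past 1.2-fold and 1.5-fold, with Python 3.11.15, NumPy 2.4.6, pandas 2.3.3 and SciPy 1.17.1. Each group had 1 library, so there was no test, and replicate labels could not be compared. All 41 genes are named; of the other lists, genes past 1.5-fold or else the highest and lowest 2 are named, with exceptions marked. Of the genes this rule names, 2 are not reported here. The genes and lists were chosen with earlier results of these data known. Shared sequence was measured as 50-base stretches of GENCODE v29 protein-coding transcripts found in transcripts of another gene; promoters came from RefSeq (GRCh38.p14), and no coordinate was moved between builds. Of the promoter letters searched, CCAAT and TATAAA stood in 29.7% and 10.8% of the 37 promoters in 33.0% and 11.1% of all, and in 35.8% and 4.6% of those of genes averaging 1 FPKM or more. Alternatives were 8 planned and 2 added after seeing the data (scaling to the same sum, and short RNA genes left out). The calculation was checked on simulated data.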

Additional observations from a re-analysis of the deposited data

How the results depend on the processing

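No paired analysis was possible because each group had 1 library. The median log2 ratio of -0.22 was -0.14 when both libraries were given the same sum, and -0.14 when they were given the same upper quartile, -0.19 with ratios centred on the median of all genes, -0.23 with a mean of at least 5 or 50 FPKM and -0.20 with no filter. The 17 genes at least 1.2-fold lower became 8 under either rescaling, 14 with ratios centred on the median of all genes (AHSA1, BAG1 and DNAJB1 no longer passing), 13 with a pseudocount of 5 FPKM (BAG1, DNAJB1, HSPA4L and PPID no longer passing) and 11 with a mean of at least 50 FPKM, which tests 25 genes. The 1 gene at least 1.2-fold higher became 2 under either rescaling, DNAJB2 joining HSPA13, and 0 with a mean of at least 50 FPKM, which leaves HSPA13 out. HSPA1B was the 1 gene at least 1.5-fold lower under every alternative run. Over all alternatives, 339 values of single genes kept their side of 1.2-fold, 25 no longer passed it and 2 newly passed it. Of those past it, 0 changed sign. Many of the 339 could not have changed, because a filter on the mean, or leaving out short RNA genes, does not alter a gene's ratio. These were 38 values with no filter, 37 and 25 with a mean of at least 5 and 50 FPKM, and 38 without short RNA genes. Summing HSPA1A and HSPA1B could alter only the HSPA1B value. Every move came from a rescaling, the centring or the pseudocount of 5 FPKM. Leaving out a library was not possible. Fragment numbers are unknown, so no counting error can be given for any ratio, and depth cannot be used to say which of the small ratios of genes at a few FPKM (HSPB8, HSF2 and DNAJB4) could be detected.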
